A study of Mus musculus with 71 samples.

Results

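The sham hippocampus was set against the sham piriform cortex, to describe how these 2 brain regions differ in mice that had received no injury. The members were the libraries whose treatment field reads sham and whose tissue field names either region, which gave 14 of the 71 libraries of the series, 9 of hippocampus and 5 of piriform cortex. The series examined the brain after a non-severe burn, with burn, excision and sham mice. Gene expression was measured by RNA sequencing of bulk tissue from C57BL/6J mice, with single-end reads of 100 bases. Sham mice in both regions had their skin shaved under isoflurane without an injury, and were given the analgesics buprenorphine (0.1 mg/kg) and, over 5 days in drinking water, paracetamol (1 mg/mL). Ages, sexes, the time of tissue collection and whether an animal gave both regions are not stated in the labels. The hippocampal libraries came from batch 1 (n = 4) and batch 2 (n = 5), and all 5 piriform libraries from batch 3, so that region and batch cannot be told apart. Piriform libraries were taken as such from the fields for tissue and source, although their titles give frontal cortex, and 1 title, that of piriform replicate 2, gives excision. Nothing in the labels says that replicates were separate animals, so p-values measure the spread between these libraries.

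The hippocampus is an archicortical structure for spatial and episodic memory, in which information passes from dentate granule cells through the mossy fibres to CA3 pyramidal cells and on to CA1 and the subiculum. The piriform cortex is a paleocortex with a small number of layers that receives odour input directly from the olfactory bulb. It lies beside the claustrum, the endopiriform nucleus, the amygdala and the olfactory tubercle, which is a part of the ventral striatum. Each field is known by its own set of transcription factors, receptors and adhesion molecules.

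Total counts ran from 7.34 M to 39.5 M in the hippocampal libraries and from 46.8 M to 67.5 M in the piriform libraries (M, mega). The groups did not overlap in total counts (exact two-sided permutation test, p = 0.0005, the smallest it can give; adjusted over 3 measures, p = 0.0015). Mitochondrial transcripts took 5.23 ± 0.70% of counts in hippocampus and 7.89 ± 2.61% in piriform cortex (SD, n = 9 and n = 5; exact permutation test, adjusted p = 0.013). Piriform replicate 5, at 3.47%, was the lowest of the 14 libraries, and the other 4 piriform libraries, at 8.40 to 10.4%, lay above all hippocampal libraries, at 4.14 to 6.20%. With hippocampal batch 2 only, the difference missed the threshold (exact permutation test, p = 0.0873). Transcripts of TEC gene models, loci that await experimental proof, took 0.0700 ± 0.0094% in hippocampus and 0.0813 ± 0.0122% in piriform cortex (SD, n = 9 and n = 5; exact permutation test, p = 0.071 unadjusted and adjusted; unadjusted p = 0.0084 without piriform replicate 3 and 0.033 without hippocampal replicate 4). Levels are given as CPM, the counts of a gene relative to the TMM-scaled total of its library, and fold changes as log2 of hippocampus over piriform cortex with the SE of the fit.

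Several libraries stood apart from their group. The summed level of 18 dentate granule cell genes ran from 726 to 1161 CPM in hippocampus, and was 1018 CPM in piriform replicate 1 against 385 to 571 CPM in the other 4 piriform libraries. The 20 genes of the striatum and olfactory tubercle summed to 409 to 547 CPM in hippocampus, and to 3632 CPM in piriform replicate 3 against 606 to 789 CPM in the other piriform libraries. Genes of the choroid plexus and ependyma summed to 6997, 3937 and 1331 CPM in hippocampal replicates 1, 8 and 9, to 153 to 471 CPM in the other 6 hippocampal libraries and to 172 to 435 CPM in piriform cortex. Neutrophil genes summed to 264 CPM in hippocampal replicate 3 and to 4.78 to 9.48 CPM in the other 13 libraries. Among the 178 coding genes past 2-fold lower in hippocampus, a class defined below, hippocampal replicate 7 was the highest hippocampal library in 92 and replicate 9 in 37. Among the 134 past 2-fold higher, replicate 7 was the highest in 0 and replicate 9 in 9. The same count over all genes is not given here. In bulk tissue, fewer cells of a type and less RNA per cell cannot be told apart.

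**Figure D1:**
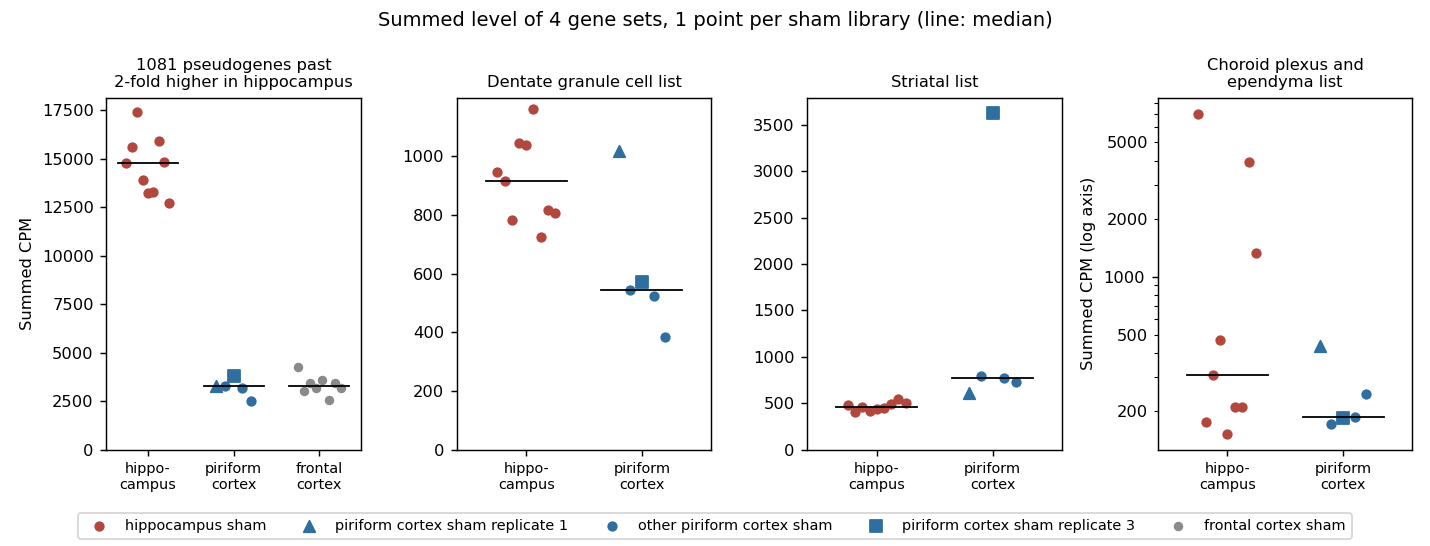
Summed CPM (y axes; the right panel has a log axis) of 4 gene sets, with 1 point per sham library and the group median as a line; frontal cortex libraries are shown for the pseudogenes only. The pseudogenes are the 1081 past 2-fold higher in hippocampus, so the direction of their sum follows from how they were chosen. Their sum lies between 12720 and 17390 CPM in all hippocampal libraries, against 2493 to 3801 CPM in piriform cortex. Piriform replicate 1 (triangle) lies among the hippocampal libraries for dentate genes, and piriform replicate 3 (square) stands at 3632 CPM for striatal genes.

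Of 19931 genes tested with edgeR's quasi-likelihood test, 6895 (34.6%) were called at a Benjamini-Hochberg adjusted p under 0.05, 3711 higher and 3184 lower in hippocampus. A test against a change of 2-fold (glmTreat) called 1677 genes (8.41%), 1355 higher and 322 lower. Most of the genes past 2-fold were pseudogenes, which are mostly intronless copies of expressed genes. Among 2301 pseudogenes tested, 1081 were past 2-fold higher (47%) and 60 past 2-fold lower (2.61%), with a median log2 fold change of 1.33. How far a gene can be told from its copies was measured as the share of its 30-base words that also occur in transcripts of another gene. Protein-coding genes with under 10% of such words shared, called coding genes of own sequence here, numbered 11907. Of these, 1374 were called higher (11.5%) and 2255 lower (18.9%), and 134 were past 2-fold higher (1.13%) and 178 past 2-fold lower (1.49%), with a median log2 fold change of -0.04. Without piriform replicate 1 the counts past 2-fold in this class were 234 higher and 234 lower.

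Setting one batch against another within a region gave far fewer calls. In sham hippocampus, batch 2 (n = 5) against batch 1 (n = 4) gave 37 called genes of 19147 (0.193%), of which 7 were past 2-fold. In sham frontal cortex, batch 2 (n = 3) against batch 1 (n = 5) gave 0 called genes of 20879 (0%) with edgeR, with 3204 at an unadjusted p under 0.05. The frontal cortex sham group follows the treatment field, which leaves out 2 batch 2 libraries whose titles read sham and whose treatment field reads burn. These groups are smaller, and neither comparison includes batch 3.

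The pseudogene difference is shown with sequences, because copies and their parent genes can be nearly identical over the length of a read. Pairs of a coding stretch of a ribosomal protein gene and the matching stretch of a processed copy follow, for genes that passed the naming rule. They are given 5′ to 3′ on the strand of the gene, from GENCODE M21 transcripts on GRCm38, with the base that differs in capitals. Rpl31 lies at chr1:39370037-39370136 and Rpl31-ps10 at chr4:137395429-137395528, both on the plus strand. Rps6 (chr4:86856329-86856799, minus strand) and Rpl21 (chr5:146835099-146835657, plus strand) are read across an exon junction, and their copies Rps6-ps2 (chr8:88806457-88806556, plus strand) and Rpl21-ps15 (chrX:151215314-151215413, minus strand) are not interrupted.
Rpl31: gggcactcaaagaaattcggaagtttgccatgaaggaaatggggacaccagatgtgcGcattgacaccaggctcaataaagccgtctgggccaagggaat
Rpl31-ps10: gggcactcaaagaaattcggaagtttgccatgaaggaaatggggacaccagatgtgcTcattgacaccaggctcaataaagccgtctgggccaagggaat
Rps6: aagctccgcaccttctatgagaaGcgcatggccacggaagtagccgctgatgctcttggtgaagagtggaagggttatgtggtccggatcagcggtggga
Rps6-ps2: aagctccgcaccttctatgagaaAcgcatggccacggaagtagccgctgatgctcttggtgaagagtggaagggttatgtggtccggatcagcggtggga
Rpl21: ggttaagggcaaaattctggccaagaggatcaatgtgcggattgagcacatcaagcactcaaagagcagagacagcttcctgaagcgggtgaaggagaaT
Rpl21-ps15: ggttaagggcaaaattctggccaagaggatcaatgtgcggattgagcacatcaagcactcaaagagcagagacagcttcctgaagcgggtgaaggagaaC
Each stretch was picked as the 100-base coding window with the fewest differing bases, leaving out windows with none. By that choice each pair matched at 99 of 100 bases, which does not describe the genes over their whole length. A read of this stretch tells parent from copy by 1 base.

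Rpl31-ps10 had its lowest, median and highest level at 14.4, 18.4 and 26.9 CPM in hippocampus, and stood at 0.306, 0.236, 0.426, 0.229 and 0.0622 CPM in piriform cortex. In the 8 frontal cortex libraries of batches 1 and 2 it stood at 0.140 to 0.495 CPM, below every hippocampal library. Its log2 fold change was 6.24 ± 0.28 (adjusted p = 2.3e-11). The parent Rpl31, a protein of the large ribosomal subunit, ran from 170.1 to 284 CPM in hippocampus and from 144 to 288 CPM in piriform cortex, and the groups overlapped. Summed with 15 pseudogene copies that share at least 30 words with it, Rpl31 reached 539 to 905 CPM in hippocampus and 308 to 606 CPM in piriform cortex. Rpl21-ps15 went the other way: it had 0, 0.209 and 0.630 CPM as the lowest, median and highest value in hippocampus, and 3.19, 1.92, 3.41, 2.04 and 2.24 CPM in piriform cortex (log2 fold change -3.28 ± 0.32, adjusted p = 3.4e-07).

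By the naming rule, 14 of the 15 genes with the largest fold change above piriform cortex were pseudogenes and 1 was a mitochondrial tRNA, mt-Tc. The pseudogenes were Rps12-ps5, AC102119.1, Rpl31-ps10, Selenok-ps8, AC122051.1, Rps4l-ps, CT030665.1, Atp6v0c-ps1, Rps6-ps2, Cbx3-ps4, Rps12-ps1, Rpl27a-ps1, Selenok-ps4 and Anp32-ps, with log2 fold changes from 4.95 to 6.82. The share of pseudogenes past 2-fold higher was 0 of 70 with under 5% of words shared, 44.3% of 176 with 5 to 25%, 67.5% of 498 with 25 to 50% and 42.8% of 1557 with 50% or more. Of the 1081 pseudogenes past 2-fold higher in hippocampus, 1080 had a frontal cortex median nearer to the piriform than to the hippocampal median, and in 1023 all 8 frontal cortex libraries lay below the lowest hippocampal library. Processed pseudogenes took 3.24 to 4.19% of counts in hippocampus and 1.62 to 1.87% in piriform cortex. The 1081 were chosen as high in these hippocampal libraries, so part of their separation from frontal cortex follows from that choice. The frontal cortex libraries carry the same batch numbers as the hippocampal ones, and batch 3 holds piriform libraries only. The part of batch, read processing or library preparation in this pattern was not tested.

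**Figure D2:**
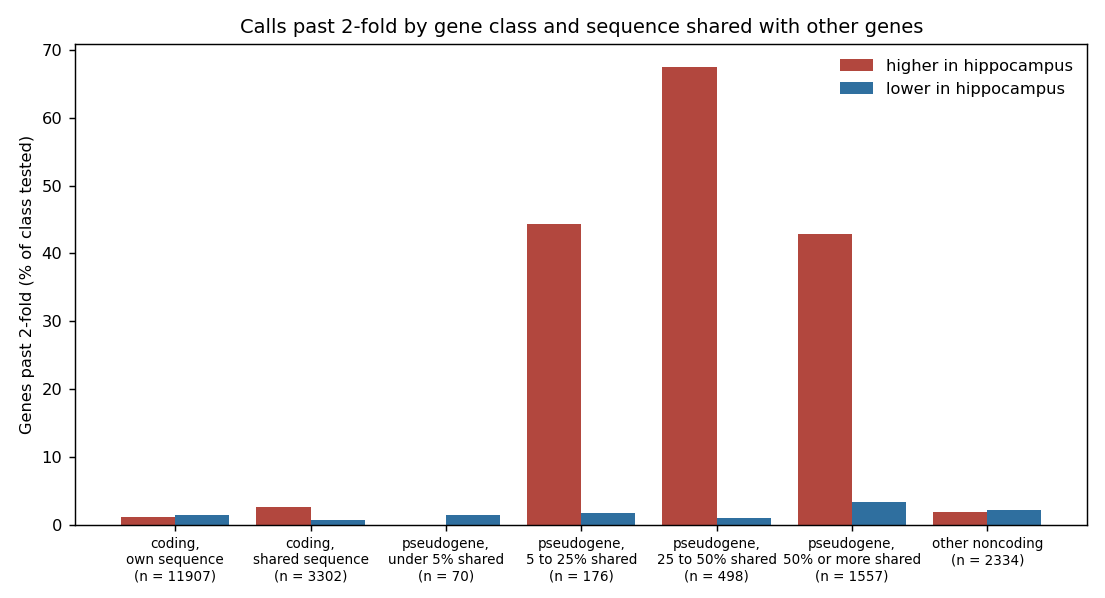
Share of genes past 2-fold (y axis, percent of the class tested) higher or lower in hippocampus, by gene class and by the share of 30-base words held in common with another gene; n is the number tested. The bars for pseudogenes with over 5% of shared words reach 42.8 to 67.5% higher in hippocampus, against 1.13% higher and 1.49% lower for coding genes of own sequence.

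Levels of genes with copies are uncertain between the regions, since how reads shared by several genes were counted is not given in the sources used here, nor whether strand was used. Gapdh, the glycolytic enzyme often used to scale other genes, shared 28.2% of its words and stood at 1069, 1152 and 1624 CPM (lowest, median and highest) in hippocampus against 2180, 1725, 2415, 1810 and 1689 CPM in piriform cortex. It was lower in hippocampus without overlap (log2 fold change -0.66 ± 0.11, adjusted p = 1.1e-04). Its sum with 17 pseudogene copies that share at least 30 words with it was 2173 to 3258 CPM in hippocampus. In piriform cortex this sum was 3285 to 4576 CPM, also without overlap. For summed copies alone, the hippocampal mean over the piriform mean was 1.93 for Rpl31, 1.73 for Rps6 and 5.33 for Rpl21. This ratio was 0.74 for Rps2 and 0.709 for Gapdh. Atp5o, a subunit of ATP synthase, shared 50.1% of its words and was higher (1.15, adjusted p = 1.3e-05). Coding genes with 50% or more of words shared were past 2-fold higher in 6.75% of 652 cases. The named genes that follow are coding genes of own sequence unless a share of words is given or they are called noncoding.

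Piriform replicate 1 separated the 2 kinds of gene. For each gene past 2-fold higher in hippocampus, its level in that library was placed on a scale where 0% is the mean of the other 4 piriform libraries and 100% the hippocampal mean. The 134 coding genes of own sequence had a median position of 26.6%, with quartiles of 12.4 and 39.0%. The 1081 pseudogenes had a median of -1.29%, with quartiles of -5.32 and 1.82%. In 100 of the 134 coding genes (74.6%) replicate 1 was the highest of the 5 piriform libraries, against 146 of the 1081 pseudogenes. These genes were called with replicate 1 in the fit, so genes in which it stood near the hippocampal level could drop out. Without it, 234 coding genes of own sequence were past 2-fold higher.

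**Figure D3:**
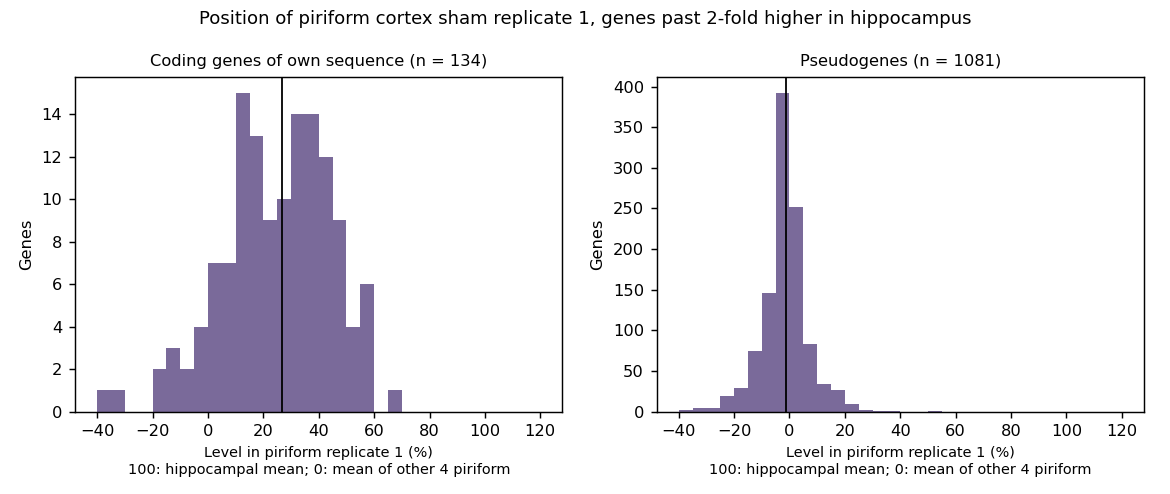
Number of genes (y axis) by the position of piriform cortex sham replicate 1 between the mean of the other 4 piriform libraries (0%) and the hippocampal mean (100%), for genes past 2-fold higher in hippocampus; lines mark medians, and values beyond the axis are placed in the end bins. Coding genes of own sequence centre at 26.6%, pseudogenes at -1.29%.

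Genes of CA1 pyramidal cells were higher in hippocampus: 8 of 12 tested were called higher and 0 lower, with a median log2 fold change of 1.49, against -0.04 over all coding genes of own sequence. Fibcd1, a membrane receptor for acetylated sugars and a marker of dorsal CA1, had 128, 176 and 224 CPM as lowest, median and highest value in hippocampus and 81.0, 12.7, 16.6, 10.6 and 15.3 CPM in piriform cortex. The groups did not overlap, and replicate 1 was the piriform library nearest to hippocampus. Its log2 fold change was 2.68 ± 0.43 (adjusted p = 9.0e-05), and 3.67 ± 0.17, adjusted p = 1.5e-10 without piriform replicate 1. Crym, a thyroid hormone binding protein, stood at 143, 185 and 309 CPM in hippocampus and 51.4, 29.1, 44.5, 27.2 and 6.61 CPM in piriform cortex (2.61 ± 0.34, adjusted p = 1.2e-05). Dcn, which encodes the proteoglycan decorin and is also made by fibroblasts, was higher (2.49 ± 0.36, adjusted p = 2.8e-05), as was the mannosidase gene Man1a (1.23 ± 0.20, adjusted p = 1.4e-04). Wfs1, an endoplasmic reticulum protein that marks CA1, did not pass the test, with 104, 150.2 and 234 CPM in hippocampus and 194, 137, 228, 127 and 98.1 CPM in piriform cortex (0.01 ± 0.19, adjusted p = 0.98).

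In the CA3 list 9 of 13 genes were higher and 1 lower, with a median of 0.57. Grik4, a high-affinity kainate receptor subunit of mossy fibre synapses, had 45.2, 61.2 and 69.3 CPM in hippocampus and 36.1, 23.2, 22.7, 19.3 and 23.9 CPM in piriform cortex. All 9 hippocampal libraries lay above all piriform libraries (log2 fold change 1.27 ± 0.13, adjusted p = 9.3e-07). Homer3, a scaffold of group I metabotropic glutamate receptors with 23.3% of words shared, had 24.7, 37.9 and 47.4 CPM in hippocampus and 15.3, 4.18, 4.93, 4.27 and 4.23 CPM in piriform cortex (2.53 ± 0.30, adjusted p = 4.1e-06). Npy2r, a presynaptic receptor for neuropeptide Y, had 18.6, 28.2 and 45.9 CPM in hippocampus and 10.5, 3.55, 5.06, 1.94 and 1.45 CPM in piriform cortex (2.82 ± 0.39, adjusted p = 2.1e-05). For both genes the lowest hippocampal value was above the highest piriform value, which was replicate 1. Prss35, a secreted serine protease homologue, was higher by 1.25 ± 0.14 (adjusted p = 2.7e-06). Coch, an extracellular matrix protein known from the inner ear, was the member that was lower (-2.07 ± 0.30, adjusted p = 3.8e-05).

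Dentate granule cell genes gave 8 of 18 higher and 1 lower, with a median of 0.73, and without piriform replicate 1, 14 higher and 1 lower with a median of 0.94. Over all genes, 37.5% were called without replicate 1, against 34.6% with it. Prox1, the transcription factor that sets granule cell identity, had 27.4, 52.1 and 80.8 CPM in hippocampus and 44.3, 6.73, 8.25, 6.67 and 7.71 CPM in piriform cortex. Replicate 1 lay inside the hippocampal range and the other piriform libraries well below it. The log2 fold change was 1.89 ± 0.44 (adjusted p = 0.003) with all libraries and 2.89 ± 0.25, adjusted p = 1.5e-07 without replicate 1. C1ql2, a secreted synaptic organiser of mossy fibre terminals, was chosen after its values were seen: it had 72.5, 129 and 137 CPM in hippocampus and 102, 1.13, 2.50, 0.800 and 0.705 CPM in piriform cortex. It missed the threshold with all libraries (2.43 ± 0.97, adjusted p = 0.061) and passed it without replicate 1 (6.49 ± 0.34, adjusted p = 5.8e-10).

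Il16, the gene of a cytokine precursor with a neuronal form, had 16.7% of words shared and stood at 18.3, 23.8 and 31.3 CPM in hippocampus and 15.6, 2.20, 1.87, 1.64 and 1.64 CPM in piriform cortex. Its fold change was 2.44 ± 0.50 (adjusted p = 9.2e-04), and 3.76 ± 0.18, adjusted p = 2.3e-10 without replicate 1. Tdo2, which starts tryptophan breakdown to kynurenine, was higher by 2.64 ± 0.63 (adjusted p = 0.0034), and by 4.26 ± 0.45, adjusted p = 1.3e-06 without replicate 1. The cation channel gene Trpc6 was higher by 0.78 ± 0.17 (adjusted p = 0.0014), and the polo-like kinase gene Plk5 was lower (-0.63 ± 0.14, adjusted p = 0.0015). Zbtb20, a zinc finger repressor that specifies hippocampal projection neurons, had 66.1, 103 and 154 CPM in hippocampus and 110.5, 41.5, 49.9, 43.0 and 34.3 CPM in piriform cortex, where replicate 1 was again within the hippocampal range. It was higher by 0.95 ± 0.26 (adjusted p = 0.0093), and not called with hippocampal batch 1 only (0.88, adjusted p = 0.0576).

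Of the CA2 list 7 of 12 genes were higher and 2 lower, with a median of 0.73. Among the 7, Sostdc1 is also in the choroid plexus list. Summed levels overlapped, at 435.7 to 540.8 CPM in hippocampus and 371.3 to 731.8 CPM in piriform cortex. Amigo2, an adhesion molecule of CA2 and CA3a, had 16.5, 19.8 and 32.6 CPM in hippocampus and 12.8, 5.52, 6.92, 3.62 and 4.08 CPM in piriform cortex (1.68 ± 0.27, adjusted p = 9.5e-05). Rgs14, which limits plasticity at CA2 synapses, was higher by 0.72 ± 0.15 (adjusted p = 0.0011), and the neurotrophin gene Ntf3 by 1.60 ± 0.39 (adjusted p = 0.0039). The members that were lower were the striatum-enriched phosphatase gene Ptpn5 (-0.91 ± 0.12, adjusted p = 9.8e-06) and the lectican gene Vcan (-0.45 ± 0.11, adjusted p = 0.0042). Of 8 subicular genes, 4 were higher and 1 lower, with a median of 0.93. Their sums also overlapped, at 91.9 to 129.5 CPM in hippocampus and 93.74 to 104.6 CPM in piriform cortex. Nts, the precursor of neurotensin, had 3.66, 4.50 and 5.89 CPM in hippocampus and 1.64, 0.896, 4.50, 0.457 and 0.0415 CPM in piriform cortex, with piriform replicate 3 in the hippocampal range. Its call (1.66 ± 0.54, adjusted p = 0.024) was lost without piriform replicate 2 (1.52, adjusted p = 0.064) and without piriform replicate 4 (1.43, adjusted p = 0.060), and without piriform replicate 3 its fold change was 2.64 ± 0.47, adjusted p = 3.5e-04. The call of Dlk1, a Notch family regulator (1.43 ± 0.47, adjusted p = 0.025), was lost without piriform replicate 4 (1.29, adjusted p = 0.068). The collagen gene Col5a2 was higher by 1.38 ± 0.26 (adjusted p = 3.9e-04), and the contactin gene Cntn6 was lower (-0.82 ± 0.13, adjusted p = 5.8e-05).

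**Figure D4:**
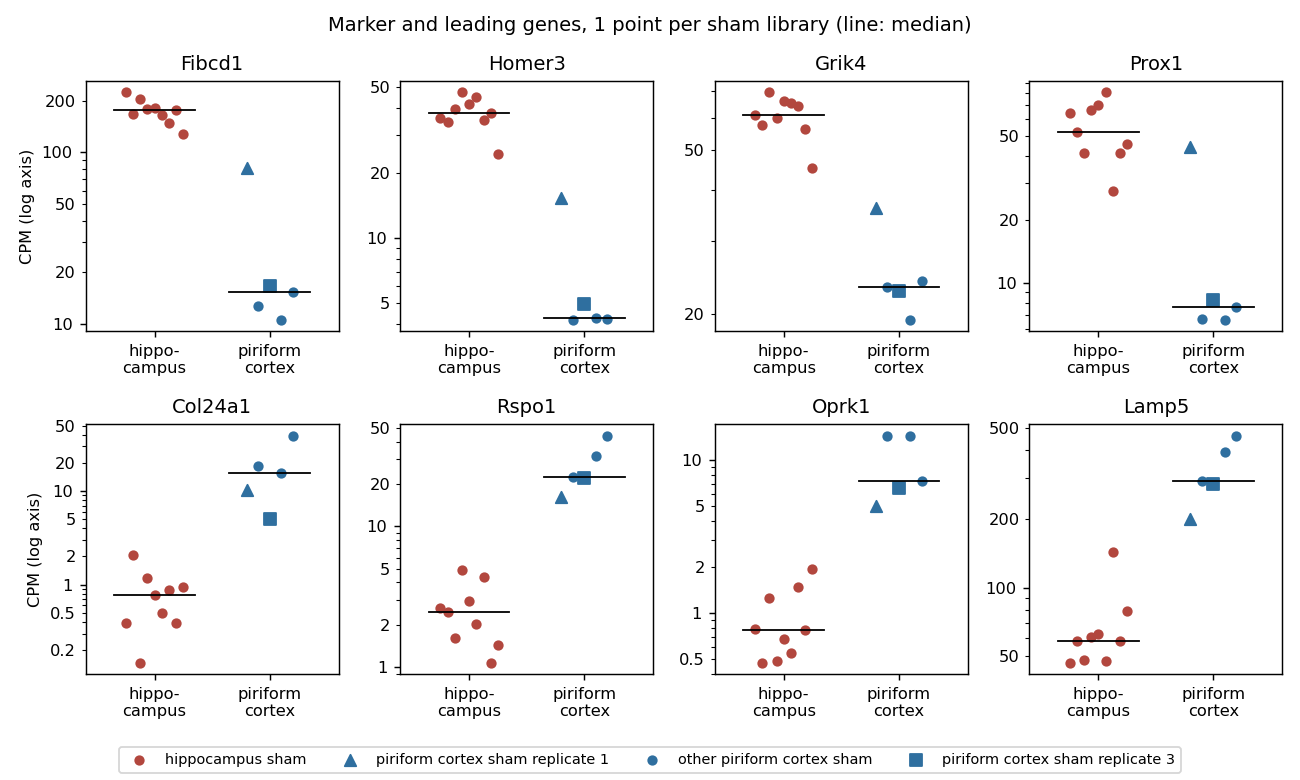
CPM on log axes of 8 genes, with 1 point per sham library and the group median as a line; the top row holds genes of hippocampal fields and the bottom row genes that were lower in hippocampus. Piriform replicate 1 (triangle) is the piriform library nearest to hippocampus in all 4 top panels, and in the bottom panels all hippocampal libraries lie below all piriform libraries. For Col24a1, Rspo1 and Oprk1 the naming rule required this separation outside piriform replicate 1.

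Pseudogenes filled the naming rule above piriform cortex, so a few coding genes of own sequence with large fold changes are given too, picked by hand after their values were seen. Lhx9, a LIM homeobox transcription factor, had 7.32, 9.51 and 14.4 CPM in hippocampus and 2.85, 0.362, 0.0371, 0.324 and 0.0829 CPM in piriform cortex (3.86 ± 0.64, adjusted p = 1.3e-04). Krt2, a keratin gene best known from skin, had 5.67, 7.61 and 13.6 CPM in hippocampus and 1.33, 0.535, 0.111, 0.0952 and 0.166 CPM in piriform cortex (4.17 ± 0.49, adjusted p = 3.5e-06). In the 8 frontal cortex libraries Lhx9 reached at most 0.574 CPM and Krt2 at most 0.416 CPM.

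The sodium-proton exchanger gene Slc9a2 had 14.4, 22.8 and 27.1 CPM in hippocampus and 5.32, 1.59, 2.98, 1.14 and 1.64 CPM in piriform cortex (3.06 ± 0.32, adjusted p = 6.9e-07). Cpne7, a calcium-dependent membrane binding protein, had 199.7, 303 and 483 CPM in hippocampus and 69.6, 51.1, 38.4, 30.8 and 26.4 CPM in piriform cortex (2.80 ± 0.25, adjusted p = 1.3e-07). Neither gene overlapped between the regions, and both were picked with their values known. Atp1a4, a sodium pump subunit known from sperm, had 3.88, 5.19 and 8.49 CPM in hippocampus and 0.0721, 0.236, 0.223, 0.343 and 0.539 CPM in piriform cortex (4.37 ± 0.34, adjusted p = 2.1e-08). Here piriform replicate 1 was the lowest piriform library, unlike for Lhx9, Krt2, Slc9a2 and Cpne7, where it was the highest. Popdc3, a cyclic AMP binding membrane protein (3.20 ± 0.31, adjusted p = 2.8e-07), and the tetraspanin gene Tspan18 (2.92 ± 0.42, adjusted p = 3.3e-05) were also higher. In 86 of the 134 coding genes past 2-fold higher, all 8 frontal cortex libraries lay below all 9 hippocampal libraries. In 82 of the 178 past 2-fold lower, all 8 lay above them. Both sets were chosen by their level in these hippocampal libraries, so part of this separation follows from the choice. The share over all coding genes is not given here.

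Of the genes that the naming rule took as lower in hippocampus, Col24a1, a fibrillar collagen, had 0.145, 0.777 and 2.08 CPM as lowest, median and highest value in hippocampus and 10.2, 18.5, 5.06, 15.8 and 39.1 CPM in piriform cortex. The groups did not overlap (log2 fold change -4.43 ± 0.45, adjusted p = 5.5e-07). The rule takes only genes without overlap outside piriform replicate 1, so the separation of its genes is in large part a condition of entry. Rspo1, a secreted enhancer of Wnt signalling, had 1.07, 2.46 and 4.92 CPM in hippocampus and 16.2, 22.3, 21.9, 31.6 and 44.1 CPM in piriform cortex (-3.37 ± 0.31, adjusted p = 1.6e-07). Tspan11, a tetraspanin, had 0.568, 1.27 and 2.23 CPM in hippocampus and 7.95, 13.0, 10.4, 19.6 and 27.1 CPM in piriform cortex (-3.52 ± 0.30, adjusted p = 5.4e-08). For both of these genes every piriform library also lay above every frontal cortex library, where Rspo1 reached 8.85 CPM and Tspan11 4.28 CPM.

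Oprk1, the kappa opioid receptor that binds dynorphin, had 0.473, 0.782 and 1.94 CPM in hippocampus and 5.01, 14.4, 6.54, 14.5 and 7.26 CPM in piriform cortex (-3.34 ± 0.34, adjusted p = 5.1e-07). Kcnh4, a voltage-gated potassium channel of the ether-a-go-go family, had 1.31, 3.46 and 11 CPM in hippocampus and 22.5, 36.2, 37.0, 36.6 and 53.8 CPM in piriform cortex (-3.08 ± 0.31, adjusted p = 4.8e-07). The thyrotropin-releasing hormone receptor gene Trhr2 had 0.156, 0.392 and 0.608 CPM in hippocampus and 2.49, 3.07, 3.00, 4.38 and 6.16 CPM in piriform cortex (-3.34 ± 0.28, adjusted p = 5.3e-08). In each of the 3 genes all hippocampal libraries lay below all piriform libraries, which the naming rule asks for outside piriform replicate 1. Also lower were the metalloprotease gene Adam33 (-3.10 ± 0.40), the agmatinase gene Agmat (-3.20 ± 0.40), the sialidase gene Neu2 (-2.96 ± 0.31), the membrane protein gene Tmem200b (-3.28 ± 0.35), the nuclear export factor gene Nxf7 (-4.17 ± 0.62) and the phosphatase gene Ptprv, annotated as a noncoding transcript (-3.97 ± 0.42), with adjusted p from 7.0e-07 to 4.2e-05. Rpl21-ps15 was also among the genes of the rule. Cd4, a T cell and microglial coreceptor, had 0.131, 0.291 and 0.834 CPM in hippocampus and 1.51, 1.43, 26.9, 1.71 and 2.01 CPM in piriform cortex (-4.05 ± 0.70, adjusted p = 1.9e-04), and -2.05 ± 0.32, adjusted p = 1.1e-04 without piriform replicate 3.

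Of the 178 coding genes past 2-fold lower, 34 had every piriform library above every frontal cortex library, and in 142 the piriform and frontal cortex libraries overlapped. Piriform replicate 1 was the lowest piriform library in 127 of the 178, and replicate 3 the highest in 25 (14%). Among all 11907 coding genes of own sequence, the hippocampal and piriform libraries did not overlap in 1187 (9.97%), and in 2103 (17.7%) when piriform replicate 1 was left out. Of the 312 past 2-fold, 262 did not overlap, and 289 without replicate 1.

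A list of genes known from the piriform and olfactory cortex did not mark the piriform libraries as a whole: 5 of 16 genes were higher in hippocampus, 4 lower, with a median of 0.06. Summed levels ran from 911 to 1348 CPM in hippocampus and from 908 to 1166 CPM in piriform cortex. Tbr1, Cux1, Rorb and Fezf2 are also in the list of neocortical layers. Tbr1, a transcription factor of deep-layer and piriform projection neurons, had 39.1, 48.4 and 71.5 CPM in hippocampus and 80.7, 142, 96.0, 136 and 126 CPM in piriform cortex (-1.25 ± 0.14, adjusted p = 2.2e-06). Cux1 (-1.39 ± 0.12, adjusted p = 1.2e-07) and Rorb (-1.59 ± 0.15, adjusted p = 1.8e-07), which mark upper neocortical layers, were lower. Fezf2, a regulator of subcortical projection neurons (0.97 ± 0.09, adjusted p = 1.2e-07), and the netrin family gene Ntng1 (1.01 ± 0.16, adjusted p = 1.2e-04) were higher in hippocampus. Of 19 neocortical layer genes, 4 were higher and 9 lower, with a median of -0.34.

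Claustrum and endopiriform genes gave 0 of 11 higher and 4 lower, with a median of -0.34. Gnb4, a G protein subunit that marks claustral neurons, had 9.80, 12.6 and 17.7 CPM in hippocampus and 38.5, 63, 40.2, 59.6 and 46.7 CPM in piriform cortex (-1.89 ± 0.14, adjusted p = 1.4e-08). The others were Oprk1, Ntng2 (-0.67 ± 0.10, adjusted p = 3.8e-05; 11.8% of words shared) and the carbonic anhydrase gene Car3 (-2.10 ± 0.49, adjusted p = 0.003; -1.43, adjusted p = 0.122 with hippocampal batch 1 only). Of 10 amygdalar genes, 5 were higher and 3 lower. Tfap2d, a transcription factor of the amygdala, was at or under 0.159 CPM in every hippocampal library and at 0.288 to 0.876 CPM in piriform cortex (-3.05 ± 0.50, adjusted p = 1.1e-04). Otof, the synaptic calcium sensor otoferlin, was lower (-1.53 ± 0.35, adjusted p = 0.0022), and Grp, the precursor of gastrin-releasing peptide, was higher by 2.17 ± 0.26 (adjusted p = 4.8e-06).

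Striatal genes were lower in hippocampus in 18 of 19 cases with a median of -2.06, and 11 of 19 with a median of -0.65 without piriform replicate 3, where 33% of all genes were called in either direction. Drd2, the dopamine D2 receptor, had 2.48, 3.08 and 4.98 CPM in hippocampus and 4.87, 5.13, 123, 2.57 and 1.41 CPM in piriform cortex. Replicate 3 stood far above the others, and the call was lost without it (-3.09 ± 0.78, adjusted p = 0.005; -0.12 ± 0.29, adjusted p = 0.79 without it). Drd1, the D1 receptor, was lower (-2.16 ± 0.43, adjusted p = 7.8e-04; -1.06 ± 0.22, adjusted p = 0.0013 without replicate 3). Rasd2, a small GTPase of the striatum, moved likewise (-1.29 ± 0.24, adjusted p = 3.3e-04; -0.80 ± 0.11, adjusted p = 4.6e-05 without replicate 3). The forkhead genes Foxp2 (-2.42 ± 0.33, adjusted p = 2.0e-05) and Foxp1 (-0.82 ± 0.11, adjusted p = 2.2e-05) were lower without overlap, also with replicate 3 left out (-1.96 and -0.72). Of 15 thalamic and septal genes, 3 were higher and 1 lower: Calb2, the calcium buffer calretinin, was higher (1.98 ± 0.25, adjusted p = 7.6e-06) and the nuclear receptor gene Rora was lower (-1.18 ± 0.20, adjusted p = 1.8e-04).

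Pallial transcription factors gave 11 of 36 higher and 8 lower, with a median of 0.04. Neurod6, a factor of pyramidal neurons, had 126, 145 and 197 CPM in hippocampus and 87.7, 58.3, 40.2, 61.3 and 47.7 CPM in piriform cortex (1.34 ± 0.16, adjusted p = 3.8e-06). Emx1, a homeobox gene of the dorsal pallium, was lower (-0.70 ± 0.10, adjusted p = 3.2e-05). GABAergic interneuron genes gave 9 of 22 higher and 4 lower. Lamp5, a membrane protein of neurogliaform and superficial cortical cells, had 46.8, 58.6 and 144 CPM in hippocampus and 200.1, 292, 285, 392 and 462 CPM in piriform cortex (-2.27 ± 0.24, adjusted p = 1.1e-06). The highest hippocampal value was that of replicate 7, and it was still below all piriform values. The neuropeptide Y gene Npy was lower (-0.82 ± 0.12, adjusted p = 3.0e-05), while the serotonin-gated channel gene Htr3a (1.12 ± 0.17, adjusted p = 5.2e-05) and Crhbp, which binds corticotropin-releasing hormone (0.75 ± 0.11, adjusted p = 2.4e-05), were higher.

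**Figure D5:**
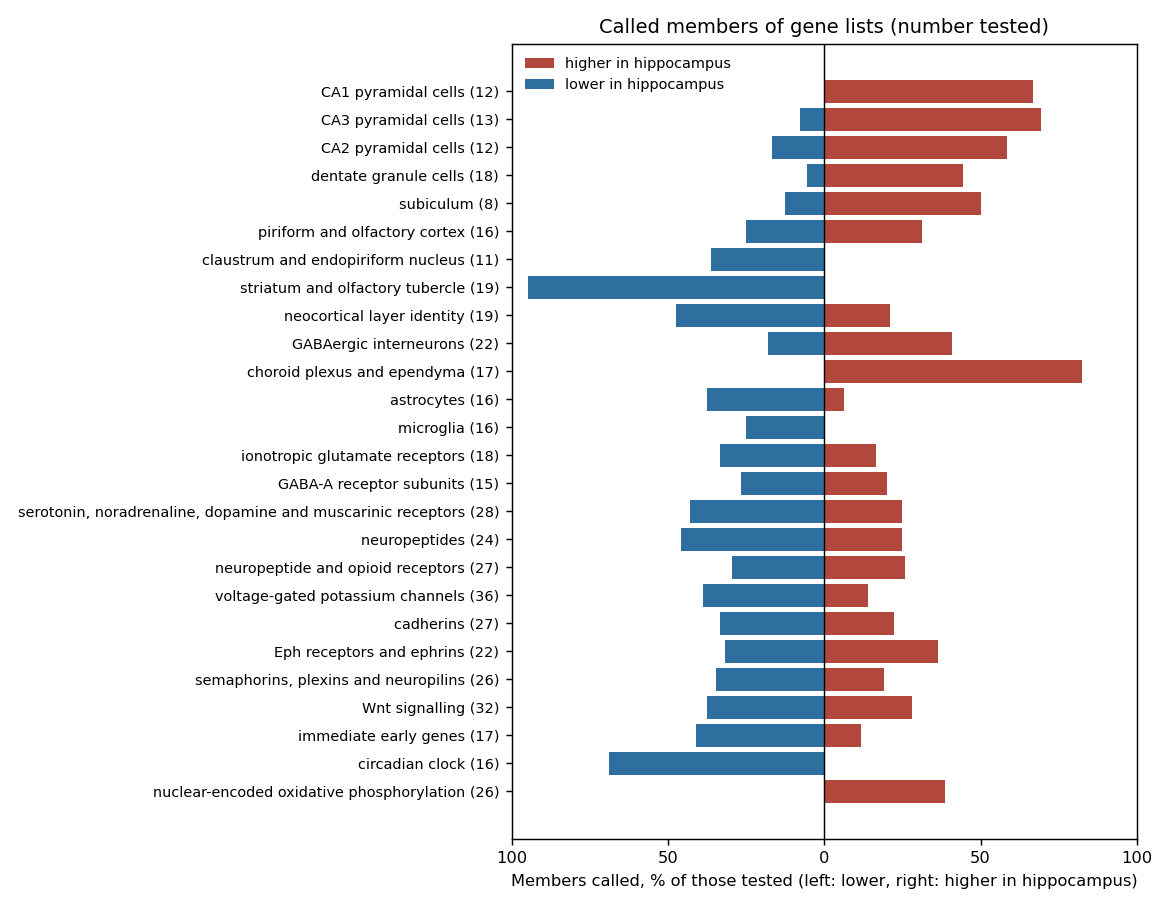
Share of the tested members of 26 gene lists that were called (x axis, percent; to the left lower and to the right higher in hippocampus), with the number tested in brackets. The CA1 list has 8 of 12 members higher and 0 lower, the striatal list 18 of 19 lower and the clock list 11 of 16 lower; over coding genes of own sequence 11.5% were called higher and 18.9% lower.

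Receptor genes were called in both directions. The 18 ionotropic glutamate receptor genes summed to 2586 to 3214 CPM in hippocampus and to 2506 to 2725 CPM in piriform cortex. Of these, 3 were higher and 6 lower, with a median of -0.18. Gria1, the GluA1 subunit of AMPA receptors, had 564, 675 and 877 CPM in hippocampus and 500.3, 259, 316, 252 and 247 CPM in piriform cortex (1.19 ± 0.16, adjusted p = 1.7e-05). The kainate receptor subunit gene Grik3 was lower (-0.87 ± 0.15, adjusted p = 2.1e-04). Of 7 metabotropic glutamate receptor genes, 2 were higher and 2 lower.

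Among 15 GABA-A receptor subunits 3 were higher and 4 lower, with a median of -0.06. Gabra5, the alpha-5 subunit of extrasynaptic receptors in CA1 and CA3, had 97.4, 129 and 164 CPM in hippocampus and 71.4, 33.1, 31.9, 31.4 and 22.1 CPM in piriform cortex. It was higher without overlap (1.79 ± 0.22, adjusted p = 5.2e-06; 2.15 ± 0.14, adjusted p = 5.2e-09 without piriform replicate 1). Gabrd, the delta subunit that also forms extrasynaptic receptors, went the other way, with 28.7, 32.5 and 54.7 CPM in hippocampus and 93.5, 96.3, 127, 108 and 121 CPM in piriform cortex (-1.60 ± 0.15, adjusted p = 2.1e-07).

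Of 28 serotonin, noradrenaline, dopamine and muscarinic receptor genes, 7 were higher and 12 lower, with a median of -0.36. Htr1a, the inhibitory 5-HT1A receptor, had 21.6, 33.1 and 40.4 CPM in hippocampus and 17.0, 10.6, 8.10, 8.70 and 8.73 CPM in piriform cortex (1.57 ± 0.19, adjusted p = 3.7e-06). Htr5b, another serotonin receptor, had 4.28, 5.83 and 7.58 CPM in hippocampus and 2.77, 0.959, 1.33, 0.457 and 0.415 CPM in piriform cortex (2.27 ± 0.35, adjusted p = 7.1e-05). For both, all hippocampal libraries were above all piriform libraries. The muscarinic M2 receptor gene Chrm2 had 3.71, 4.17 and 6.93 CPM in hippocampus and 6.14, 16.3, 10.7, 20.1 and 13.0 CPM in piriform cortex and was lower (-1.49 ± 0.22, adjusted p = 4.3e-05), as was the beta-1 adrenergic receptor gene Adrb1 (-0.85 ± 0.12, adjusted p = 3.0e-05).

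Neuropeptide genes gave 6 of 24 higher and 11 lower, with a median of -0.47. Crh, corticotropin-releasing hormone, had 2.29, 3.23 and 4.14 CPM in hippocampus and 7.71, 10.9, 7.82, 8.47 and 7.61 CPM in piriform cortex (-1.40 ± 0.14, adjusted p = 4.9e-07). Cartpt, the precursor of the CART peptides, was lower (-2.0 ± 0.25, adjusted p = 6.3e-06). Penk, the enkephalin precursor, with 11% of words shared, turned on piriform replicate 3, at 542 CPM against 36.6 to 74.0 CPM in the other piriform libraries and 26.2 to 59.8 CPM in hippocampus (-2.06 ± 0.49, adjusted p = 0.0031; -0.65 ± 0.22, adjusted p = 0.031 without it; -2.19, adjusted p = 0.0502 with hippocampal batch 1 only). Of 27 neuropeptide and opioid receptors, 7 were higher and 8 lower. Sstr2, a somatostatin receptor (-1.63 ± 0.15, adjusted p = 1.8e-07), Cckbr, the cholecystokinin B receptor (-1.71 ± 0.22, adjusted p = 1.1e-05), and Crhr1, the main receptor of corticotropin-releasing hormone (-0.93 ± 0.16, adjusted p = 1.4e-04), were lower, each without overlap.

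The corticosteroid receptors, through which stress hormones act on the hippocampus, differed from each other. Nr3c2, the high-affinity mineralocorticoid receptor, had 63.2, 104 and 162 CPM in hippocampus and 73.0, 24.7, 27.8, 25.4 and 23.9 CPM in piriform cortex (1.54 ± 0.28, adjusted p = 3.3e-04), with piriform replicate 1 in the hippocampal range. Nr3c1, the glucocorticoid receptor, had 37.1, 55.2 and 68.2 CPM in hippocampus and 50.2, 81.7, 67.5, 82.2 and 67.2 CPM in piriform cortex (-0.44 ± 0.15, adjusted p = 0.033). The groups overlapped, and the Nr3c1 call was lost without hippocampal replicate 2, 3, 7 or 8 or piriform replicate 2, 4 or 5 (adjusted p from 0.053 to 0.0997). In the list of 14 corticosteroid receptors and targets, 5 were higher and 5 lower. Of 11 neurotrophin and receptor genes, 2 were higher and 3 lower.

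Adhesion and guidance genes divided between the regions. Cadherins gave 6 of 27 higher and 9 lower: Pcdh20 (2.10 ± 0.31, adjusted p = 4.3e-05) and Cdh9, an adhesion molecule of CA3 and dentate synapses (1.39 ± 0.20, adjusted p = 3.1e-05), were higher, and Cdh6 was lower (-1.77 ± 0.19, adjusted p = 9.0e-07). Eph receptors and ephrins gave 8 of 22 higher and 7 lower, with the ligand gene Efna5 at 3.39, 5.66 and 8.78 CPM in hippocampus and 11.1, 21, 14.5, 25.3 and 27.4 CPM in piriform cortex (-1.86 ± 0.22, adjusted p = 3.0e-06) and the receptor gene Epha8 lower (-1.02 ± 0.17, adjusted p = 1.7e-04). Semaphorins, plexins and neuropilins gave 5 of 26 higher and 9 lower. The ligand gene Sema3e (1.30 ± 0.16, adjusted p = 4.6e-06) was higher and its receptor gene Plxnd1 lower (-1.76 ± 0.23, adjusted p = 1.2e-05). The coreceptor gene Nrp1 was higher (1.59 ± 0.22, adjusted p = 2.1e-05), and the ligand gene Sema3f lower (-1.71 ± 0.20, adjusted p = 3.8e-06).

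Of 36 voltage-gated potassium channel genes, 5 were higher and 14 lower, with a median of -0.27. Kcns1, an electrically silent subunit, was lower (-1.42 ± 0.15, adjusted p = 1.4e-06). Kcnh5 (-2.75 ± 0.36, adjusted p = 1.0e-05) and Kcnh7 (-1.70 ± 0.22, adjusted p = 1.0e-05), relatives of Kcnh4, were lower without overlap. Wnt signalling genes gave 9 of 32 higher and 12 lower, with the ligand gene Wnt7b higher (0.85 ± 0.14, adjusted p = 9.1e-05) and Wnt9a lower (-1.47 ± 0.19, adjusted p = 7.5e-06). Perineuronal net genes gave 0 of 14 higher and 5 lower; Ncan, neurocan, was lower (-0.55 ± 0.08, adjusted p = 6.0e-05). The call of Acan, aggrecan (-0.54 ± 0.20, adjusted p = 0.048), was lost in 10 of the 14 fits that left out 1 library, with adjusted p up to 0.195 and a fold change of -0.36 without piriform replicate 5.

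Immediate early genes, which neuronal activity switches on within minutes, gave 2 of 17 higher and 7 lower, with a median of -0.54. Egr1 had 67.4, 134 and 184 CPM in hippocampus and 273, 418, 419, 475 and 339 CPM in piriform cortex (-1.47 ± 0.18, adjusted p = 6.7e-06). Arc, which regulates AMPA receptor traffic, had 56.8, 163 and 241 CPM in hippocampus and 349.7, 509.6, 569, 592 and 314 CPM in piriform cortex (-1.43 ± 0.25, adjusted p = 2.5e-04). Neither gene overlapped between the regions, and hippocampal replicate 3 was the lowest library for both. Egr3 was lower (-1.09 ± 0.18, adjusted p = 1.3e-04), while Jun (1.16 ± 0.15, adjusted p = 1.2e-05) and Nr4a3 (1.31 ± 0.27, adjusted p = 9.9e-04) were higher. Fos did not pass the test (-0.46 ± 0.30, adjusted p = 0.25).

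Circadian clock genes gave 0 of 16 higher and 11 lower, with a median of -0.45. Ciart, a clock repressor with 21.4% of words shared, had 5.93, 7.92 and 8.52 CPM in hippocampus and 12.4, 12.2, 12.4, 13.3 and 16.4 CPM in piriform cortex (-0.82 ± 0.10, adjusted p = 6.5e-06). The nuclear receptor gene Nr1d1 (-0.58 ± 0.10, adjusted p = 1.3e-04), the period gene Per1 (-0.60 ± 0.11, adjusted p = 4.0e-04) and Npas2, a partner of Bmal1 (-0.85 ± 0.15, adjusted p = 2.1e-04), were lower. Hours of collection are not given, and their part in these differences cannot be told apart from region and batch.

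Glial lists are set beside all coding genes of own sequence, of which 11.5% were called higher and 18.9% lower. Of 16 astrocyte genes 1 was higher and 6 lower, with a median of -0.21. Gfap, an intermediate filament that hippocampal astrocytes carry at high levels, had 220.0, 333 and 393 CPM in hippocampus and 292, 100.1, 205, 106 and 61.1 CPM in piriform cortex (1.12 ± 0.28, adjusted p = 0.0045), with piriform replicate 1 inside the hippocampal range. The glutamate transporter gene Slc1a2 (-0.46 ± 0.10, adjusted p = 0.0013) and the folate enzyme gene Aldh1l1, with 11.4% of words shared (-0.56 ± 0.11, adjusted p = 5.7e-04), were lower without overlap.

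Of 17 myelin and oligodendrocyte genes, 0 were called by edgeR and 1 had an unadjusted p under 0.05, with a median of -0.07. Mbp, myelin basic protein, ran from 717 to 1583 CPM in hippocampus and from 934 to 2848 CPM in piriform cortex (-0.51 ± 0.23, adjusted p = 0.096), and was called without piriform replicate 2 (-0.67, adjusted p = 0.0274). Microglial genes gave 0 of 16 higher and 4 lower, with Csf1r, the receptor that microglia need to survive and which had 15.0% of words shared, lower (-0.43 ± 0.07, adjusted p = 2.0e-04) and Aif1 not past the test (-0.23 ± 0.16, adjusted p = 0.3). Endothelial genes gave 1 of 16 higher and 4 lower, and 1 of 16 lower without piriform replicate 1. The junction gene Esam was lower (-0.82 ± 0.14, adjusted p = 1.9e-04), and Cldn5 did not pass (0.07 ± 0.22, adjusted p = 0.84).

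Choroid plexus and ependymal genes gave 14 of 17 higher and 0 lower, with a median of 3.13, and 9 of 17 higher without piriform replicate 3. Ttr, the thyroxine carrier transthyretin, had 22.2, 136 and 4843 CPM in hippocampus and 189, 2.06, 3.13, 0.857 and 8.02 CPM in piriform cortex. The groups overlapped, and its call (4.62 ± 1.74, adjusted p = 0.049) was lost when any 1 of hippocampal replicates 1, 3, 4, 8 or 9 or piriform replicates 2, 3, 4 or 5 was left out (adjusted p from 0.052 to 0.105), and was 8.16 ± 1.96, adjusted p = 0.0035 without piriform replicate 1. Kl, the ageing-related hormone coreceptor klotho (3.21 ± 0.87, adjusted p = 0.008), and Otx2, a homeobox factor of the plexus (3.61 ± 1.01, adjusted p = 0.01), were higher. Of 18 neurogenesis genes, 6 were higher and 3 lower. The tubulin gene Tubb2b (0.78 ± 0.13, adjusted p = 1.3e-04; 43.5% of words shared) and the stem cell gene Hopx (1.12 ± 0.21, adjusted p = 3.8e-04; 26.3%) were higher. Igfbpl1, a gene of young granule neurons, was higher by 1.81 ± 0.54 (adjusted p = 0.015; 2.88 ± 0.46, adjusted p = 1.1e-04 without piriform replicate 1), and not called with hippocampal batch 1 only (2.05, adjusted p = 0.0597) or batch 2 only (1.63, adjusted p = 0.0855), while the call of Dcx, doublecortin (-0.55 ± 0.18, adjusted p = 0.022), was lost without piriform replicate 2 or 4 (adjusted p = 0.095 and 0.066).

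Of 26 nuclear genes of oxidative phosphorylation, 10 were higher and 0 lower, with a median of 0.22; the share of words held in common with other genes was 50.1% for Atp5o and 17.3% for Ndufb9 (0.65 ± 0.14, adjusted p = 0.0014). Cytosolic ribosomal protein genes gave 1 of 28 higher, and 12 of 28 without piriform replicates 1 and 3, where 38.4% of all genes were called in either direction. Of 11 nuclear long noncoding RNAs, 0 were higher and 4 lower, with Malat1 at 48.9, 188 and 305 CPM in hippocampus and 344, 410.3, 236, 396 and 435 CPM in piriform cortex (-0.99 ± 0.27, adjusted p = 0.009; -1.08, adjusted p = 0.0622 with hippocampal batch 1 only). Heat shock and unfolded protein response genes gave 1 of 21 higher and 3 lower, and interferon response genes 1 of 18 higher and 1 lower. Xist, the noncoding transcript that silences an X chromosome, did not pass the test (-0.23 ± 0.19, adjusted p = 0.38).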

How the data were processed

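RNA sequencing counts per gene were deposited by the authors as raw whole numbers without normalization. Reads were processed with fastp, FastQC 0.11.3 and STAR on GRCm38, with DESeq2 1.24.0, per the submitters' processing notes. No source used here gives the counter, the annotation release or the strand setting. From the 55416 gene identifiers, 52083 were matched to GENCODE M21 symbols, and the 3333 without a match held 0.706% of counts in the 14 libraries.

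Libraries were grouped by treatment and tissue fields. Genes were filtered with filterByExpr, scaled by TMM over 22 sham libraries and tested with edgeR 4.0.16 in R 4.3.3 (quasi-likelihood test; glmTreat for 2-fold), with Benjamini-Hochberg adjustment over all genes tested. The code was tested on simulated data. DESeq2 1.42.0, another scaling, no filter, each hippocampal batch alone, a replicate block, a shared dispersion and leaving out each library were the alternatives. Leaving out piriform replicates 1 and 3 together, TMM over coding genes of own sequence and fitting that class alone were added after seeing the data.

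Named genes were the 15 largest fold changes each way past 2-fold with a mean of at least 1 CPM, a symbol other than a Gm number or Rik name, the same sign for each hippocampal batch and no overlap outside piriform replicate 1, up to 5 called members per list by smallest p, and 16 chosen genes. The members and the lists were chosen with earlier results of these data known. Within groups, 46 pairs of libraries were compared and 0 were identical. Some genes that the rule selects are not reported here.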

Additional observations from a re-analysis of the deposited data

Results flagged for a closer look

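Dixon's test was run on 306 groups of values, from named genes as log2(CPM + 0.5) and from total counts, mitochondrial percent and TEC percent. In 39 groups a library lay far from the others, by a threshold that chance passes in about 1 in 20 single tests. The count cannot be set against that rate. The genes were named with these data known, C1ql2 and Lhx9 after their values were seen. The naming rule also exempted piriform replicate 1 from its condition of no overlap. Piriform replicate 1 accounted for 12 of the 39 groups. It was far above the other piriform libraries for Fibcd1 (81 CPM), Homer3 (15.3 CPM), Prox1 (44.3 CPM), C1ql2 (102 CPM), Il16 (15.6 CPM), Lhx9 (2.85 CPM), Otx2 (1.21 CPM), Nr3c2 (73 CPM), Pcdh20 (39.5 CPM) and Nrp1 (26.2 CPM), and far below them for Npas2 (31.1 CPM) and Plxnd1 (102 CPM). Each of these values lay on the hippocampal side of the other piriform libraries.

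Piriform replicate 3 was far above its group for Cd4 (26.9 CPM), Rasd2 (387 CPM), Drd1 (66.3 CPM), Drd2 (123 CPM) and Penk (542 CPM). Piriform replicate 5 was low for Nr4a3 (8.52 CPM) and high for Ciart (16.4 CPM), and replicate 2 was high for Prss35 (3.87 CPM).

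Among hippocampal libraries, replicate 9 was low for Grik4 (45.2 CPM), Homer3 (24.7 CPM) and Gfap (220 CPM) and high for Tbr1 (71.5 CPM), Ntng1 (53.2 CPM) and Grik3 (77.2 CPM). Replicate 7 was high for Nxf7 (1.1 CPM), Lamp5 (144 CPM), Npy (99.1 CPM) and Gapdh (1624 CPM) and low for Cbx3-ps4 (0.926 CPM). Replicate 3 was high for Crym (309 CPM), Car3 (2.08 CPM) and Grp (36.3 CPM) and low for Egr1 (67.4 CPM) and Arc (56.8 CPM). Replicate 1 was low for Ptprv (0 CPM), Dcx (4.97 CPM) and Malat1 (48.9 CPM).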

How the results depend on the processing

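Of 144 called named genes, 132 kept direction and call in every alternative run that gave them a value. The other 12 lost the call in at least 1 (Nts, Dlk1, Zbtb20, Car3, Drd2, Igfbpl1, Dcx, Ttr, Penk, Acan, Malat1 and Nr3c1). DESeq2 gave a value for 141 of the 144. Genes named by fold change also had to keep their sign in each hippocampal batch, so part of this stability was built in. Coding genes of own sequence called higher (1374) numbered 837 with hippocampal batch 1 only. Those past 2-fold higher (134) numbered 66 with batch 1 only, 73 with batch 2 only, 79 by DESeq2, 324 without piriform replicates 1 and 3, and 68 when this class was fitted alone, and ran from 97 to 234 when 1 library was left out, 234 being without piriform replicate 1. Those past 2-fold lower (178) numbered 118 with batch 2 only and 116 when the class was fitted alone. The causes were not tested. Whether the numbers in the titles pair the libraries cannot be told from so few pairs. Same-numbered libraries had r from -0.437 to 0.299 over 8 pairs, and others from -0.285 to 0.449 over 28. With the replicate block and without piriform replicate 2, 5052 genes were called, 1508 were past 2-fold against 1677, and 1439 coding genes of own sequence were lower, against 2255. The mitochondrial difference was -2.172 points with batch 2 only (exact permutation p = 0.0873), and the TEC difference ran from -0.01657 to -0.008576 points with 1 library left out, passing without piriform replicate 3 and without hippocampal replicate 4 (exact permutation p = 0.0084 and 0.033). The sign turned for genes that missed the test: Wfs1 was -0.0039 with DESeq2 size factors, -0.0057 with 3 group means, -0.1073 with batch 1 only, -0.0058 by DESeq2 and -0.1192 to 0.1836 with 1 library left out, and Cldn5 was -0.1595 with batch 2 only, -0.0312 with the replicate block and -0.0307 to 0.3233 with 1 library left out. Without piriform replicates 1 and 3, Mbp was 0.0731 and the called Drd2 0.0801. TMM over coding genes of own sequence moved the median by 0.0448 and DESeq2 size factors by -0.0149 (log2). Limits are the confounding of region with batch, shallower hippocampal libraries, and libraries that stand apart in genes of other tissue: piriform replicates 1 (dentate) and 3 (striatum) and hippocampal replicates 1, 8 and 9 (choroid plexus).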

Other observations

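Genes of meninges and fibroblasts, which wrap the brain and its vessels, gave 5 of 15 higher and 0 lower in hippocampus with edgeR, and 11 of 15 higher without piriform replicate 1. Their summed level ran from 87.5 to 203 CPM in hippocampus and from 70.7 to 169.6 CPM in piriform cortex, the highest piriform value being that of replicate 1. Genes of oligodendrocyte precursors gave 0 of 14 higher and 4 lower, with sums of 529.8 to 710.0 CPM in hippocampus and 709 to 785 CPM in piriform cortex. Genes of pericytes and smooth muscle gave 1 of 13 higher and 2 lower. Erythroid genes, a measure of blood in the tissue, summed to 3018 CPM in hippocampal replicate 3 against 382 to 713 CPM in the other hippocampal libraries, and to 1734 CPM in piriform replicate 1 against 472.5 to 820.2 CPM in the other piriform libraries.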
